A study of Mus musculus with 6 samples.

Results

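The genes described here are the caveolins Cav1, Cav2 and Cav3, the cavins Cavin1, Cavin2, Cavin3 and Cavin4, and Ehd2, chosen by symbol as the 8 genes that build the coat and neck of caveolae. Each of the 8 has 1 row among the 55804 rows of the count table, and each passed the filter on low counts that left 14651 genes for testing. They were measured by RNA-seq in C2C12 cells, a mouse myoblast line that fuses into myotubes when serum is lowered, after 3 days in differentiation medium with horse serum. With CRISPR/Cas9, cells had received either a guide RNA targeting Prr33 (Prr33-gRNA, genotype PRR33 knocked down) or a control guide RNA (Ctrl-gRNA, genotype WT), and each group had 3 libraries. The labels name no allele, no guide sequence and no more than 1 line per guide, so the guide's effect and any difference between cell lines cannot be told apart. Whether the 3 libraries of each group stem from separate cultures is not stated, so p-values reflect library-to-library spread that may be technical.

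Caveolae are small flask-shaped pits of the plasma membrane. Caveolins are hairpin proteins that insert into the inner leaflet and assemble into the coat's membrane core, and cavins are peripheral proteins that polymerise around it. Cav1 is needed for caveolae in most cell types, Cav2 joins it as a partner, and Cav3 takes the place of Cav1 in skeletal and cardiac muscle, where it is found at the sarcolemma and at forming T-tubules. Human CAV3 mutations cause limb-girdle muscular dystrophy and rippling muscle disease. Myoblasts in culture express Cav1 and turn on Cav3 as they differentiate.

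Library totals lay between 17412383 and 19471762 counts in the Prr33-gRNA group and between 17006381 and 19118010 in the Ctrl-gRNA group. The lowest count of any of the 8 genes in any library was 216. Levels below are CPM (counts scaled to TMM-adjusted library sizes) for a gene across libraries, and FPKM (scaled to depth and gene length, as deposited by the authors) where genes are compared with each other. Log2 fold changes set Prr33-gRNA over Ctrl-gRNA and come from edgeR's quasi-likelihood test, with p-values adjusted over all genes tested and a threshold of 0.05. Prr33 itself averaged 43.8 ± 1.82 CPM in Prr33-gRNA and 58.6 ± 3.76 CPM in Ctrl-gRNA (SD, n = 3 each; log2 fold change -0.42, edgeR adjusted p = 1.37e-06).

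Of the 8 genes, 3 rose (Cav1, Cav2 and Cavin2), 4 fell (Cav3, Cavin1, Cavin3 and Ehd2) and 1, Cavin4, did not pass the test. Over all genes tested, 25.5% were called higher, 26.6% lower and 52.1% in either direction. The groups did not overlap for 7 of the 8 genes, where 57.9% of all tested genes had no overlap. At least 2-fold changes past the threshold were found for 3 of the 8 (Cav1, Cav3 and Cavin2) and for 10.9% of all tested genes. The median absolute log2 fold change was 0.82 over the 8 genes and 0.27 over all tested genes, and the signed medians were -0.10 and 0.00.

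**Figure D1:**
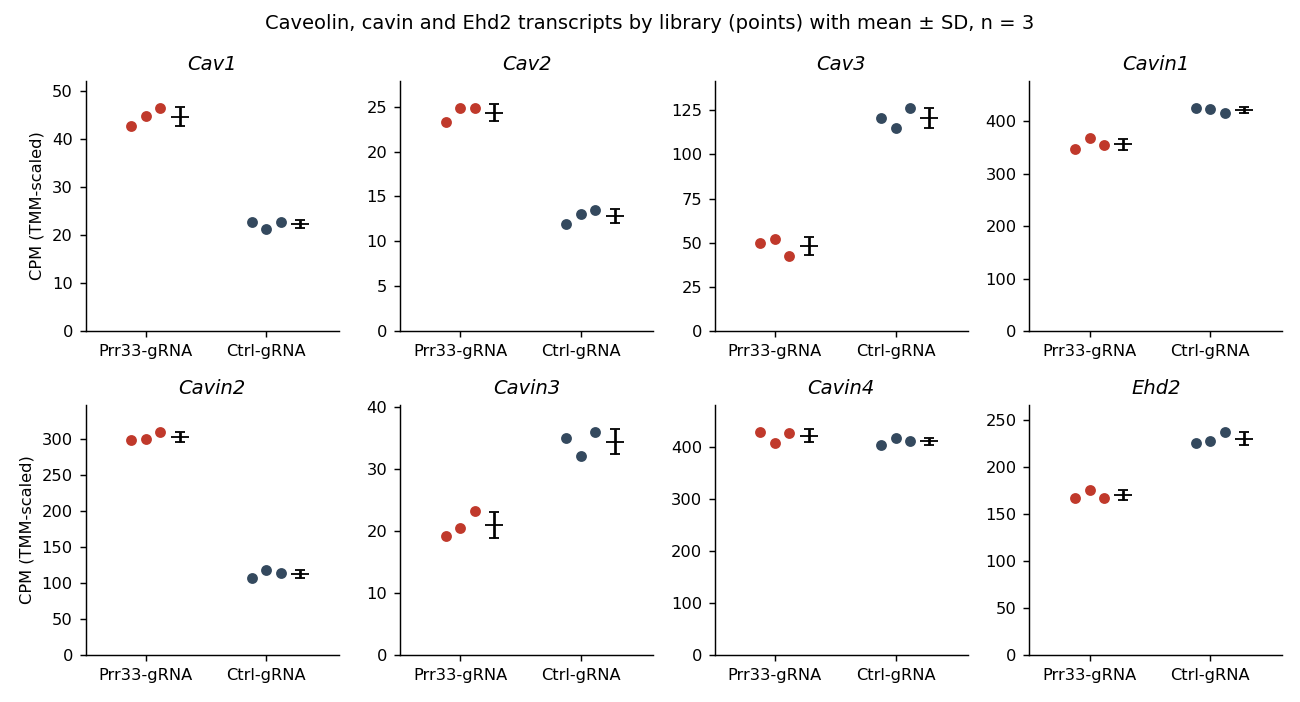
Level of each gene in CPM (vertical axes, from 0) in the 3 Prr33-gRNA and the 3 Ctrl-gRNA libraries (points), with the group mean and SD beside them. For Cav1, Cav2 and Cavin2 the Prr33-gRNA points lie above those of Ctrl-gRNA, for Cav3, Cavin1, Cavin3 and Ehd2 they lie below, and for Cavin4 they overlap.

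Among the caveolins, the muscle isoform fell while the widely expressed pair rose. Cav3 had 50.03, 52.0 and 42.6 CPM in the Prr33-gRNA libraries, against 120.4, 115 and 126 CPM in the Ctrl-gRNA libraries. Every Prr33-gRNA library lay below every Ctrl-gRNA library, and the third Prr33-gRNA library was the lowest of all. The fall was 2.50-fold (log2 fold change -1.32, SE 0.06, 95% interval -1.45 to -1.20, edgeR adjusted p = 3.69e-18), and 92.5% of tested genes had a smaller absolute change. In bulk RNA, fewer differentiated cells and less Cav3 RNA per cell cannot be told apart. Cav3 (ENSMUSG00000062694) is a plus-strand gene of chromosome 6 at 112459505 to 112472872 (mm10).

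Cav1, the scaffold protein of non-muscle caveolae, had 42.7, 44.8 and 46.5 CPM in the Prr33-gRNA libraries, against 22.7, 21.3 and 22.7 CPM in the Ctrl-gRNA libraries. Its lowest Prr33-gRNA value was well above its highest Ctrl-gRNA value. It rose 2.01-fold (log2 fold change 1.005, SE 0.07, edgeR adjusted p = 1.47e-13). Cav2, which depends on Cav1 for its transport to the cell surface, had 23.3, 24.8 and 24.9 CPM in the Prr33-gRNA libraries, against 11.95, 13.1 and 13.5 CPM in the Ctrl-gRNA libraries. The groups were again apart, and the rise was 1.90-fold (log2 fold change 0.92, SE 0.10, edgeR adjusted p = 5.65e-10). Both genes lie on the plus strand of chromosome 6, Cav2 (ENSMUSG00000000058) at 17281185 to 17289115 and Cav1 (ENSMUSG00000007655) at 17306335 to 17341452, with 17220 bases between them.

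The promoters of the 3 caveolins and of Cavin2, the gene among the 8 with the steepest rise, are shown because these 4 genes had the 4 largest changes in level. Each is the 250 bases before the RefSeq start (GRCm38.p6), and capitals mark each E-box (CANNTG, read on both strands), the core site of helix-loop-helix factors such as MyoD.
Cav1, chr6:17306085-17306334, plus strand: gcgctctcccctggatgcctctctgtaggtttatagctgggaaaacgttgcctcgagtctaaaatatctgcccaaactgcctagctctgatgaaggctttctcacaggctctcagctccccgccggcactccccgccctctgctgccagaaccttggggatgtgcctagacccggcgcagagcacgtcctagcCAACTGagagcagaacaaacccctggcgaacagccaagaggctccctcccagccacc
Cav2, chr6:17280935-17281184, plus strand: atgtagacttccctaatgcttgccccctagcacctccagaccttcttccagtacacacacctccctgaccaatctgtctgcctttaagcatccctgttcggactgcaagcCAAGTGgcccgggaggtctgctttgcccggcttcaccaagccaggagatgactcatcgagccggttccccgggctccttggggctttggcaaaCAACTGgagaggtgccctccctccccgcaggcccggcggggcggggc
Cav3, chr6:112459255-112459504, plus strand: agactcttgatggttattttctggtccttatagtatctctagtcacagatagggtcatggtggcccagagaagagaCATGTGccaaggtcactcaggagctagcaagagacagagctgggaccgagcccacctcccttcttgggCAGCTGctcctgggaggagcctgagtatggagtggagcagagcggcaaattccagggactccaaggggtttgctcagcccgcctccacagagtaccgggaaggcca
Cavin2, chr1:51288876-51289125, plus strand: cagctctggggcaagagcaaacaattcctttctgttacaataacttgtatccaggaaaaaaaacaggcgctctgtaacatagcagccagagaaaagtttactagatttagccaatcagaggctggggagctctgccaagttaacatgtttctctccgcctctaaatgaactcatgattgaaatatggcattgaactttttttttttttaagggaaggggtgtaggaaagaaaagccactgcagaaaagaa
The Cav3 window holds 2 E-boxes, one of which is CAGCTG, starting 106 bases before the start. The printed Cav1 window holds 1 E-box and the Cav2 window 2, none of them CAGCTG, and the Cavin2 window holds 0. Among 32851 mouse windows of this length 66.2% hold an E-box and 13.0% hold CAGCTG. RefSeq windows were matched for 7 of the 8 genes (9 windows, with 2 each for Cav1 and Cavin1). The other Cav1 window, not printed, also holds 1 E-box, CAGGTG, starting 158 bases before its start. CAGCTG was also found in the Ehd2 window, 204 bases before the start, and in none of the others. The Sp1 site GGGCGG, present in 32.7% of all windows, was found in each Cavin1 window and in those of Cav2 and Ehd2. Of the 2 Cav1 windows only the one printed above held it. The MEF2 consensus, present in 2.92% of all windows, and the CArG box, present in 1.47%, were found in none of the 9. These matches describe letters and not bound sites.

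Of the 4 cavins, Cavin2 rose, Cavin1 and Cavin3 fell, and the muscle-restricted Cavin4 did not pass the test. Cavin2, a lipid-binding cavin that promotes membrane curvature, had 298, 299 and 309.9 CPM in the Prr33-gRNA libraries, against 107, 118 and 113 CPM in the Ctrl-gRNA libraries. Every Prr33-gRNA library was far above every Ctrl-gRNA library. The rise was 2.68-fold (log2 fold change 1.42, SE 0.05, 95% interval 1.33 to 1.52, edgeR adjusted p = 1.84e-23), past that of 93.3% of tested genes in absolute size. Cavin2 (ENSMUSG00000045954) is a plus-strand gene of chromosome 1 at 51289126 to 51302960.

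Cavin3, which binds protein kinase C delta, had 19.3, 20.4 and 23.3 CPM in the Prr33-gRNA libraries, against 35.0, 32.2 and 36.0 CPM in the Ctrl-gRNA libraries. The groups stood apart, with the third Prr33-gRNA library nearest to Ctrl-gRNA. The fall was 1.64-fold (log2 fold change -0.71, SE 0.09, edgeR adjusted p = 1.04e-08). Cavin3 (ENSMUSG00000037060) is a minus-strand gene of chromosome 7 at 105480083 to 105482300. It is the single gene of the 8 that shares exonic sequence in GENCODE M21 with another gene. The plus-strand model Gm45667, which had at most 4 counts in a library, covers 374 of its 1662 exonic bases. Whether reads were counted by strand is not stated, so the counts over that stretch are uncertain.

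Cavin1, the cavin that caveolae in every tissue require, had 347, 367 and 354 CPM in the Prr33-gRNA libraries, against 425, 424 and 416 CPM in the Ctrl-gRNA libraries. All Prr33-gRNA values were lower, but the fall was 1.18-fold (log2 fold change -0.24, SE 0.04, edgeR adjusted p = 7.00e-06), and 45.9% of tested genes changed less. Cavin1 (ENSMUSG00000004044) is a minus-strand gene of chromosome 11 at 100956733 to 100970887. Cavin4, the muscle-restricted cavin also called MURC, had 431, 408 and 429 CPM in the Prr33-gRNA libraries, against 404, 417 and 413 CPM in the Ctrl-gRNA libraries. Its groups overlapped. The log2 fold change was 0.04 (95% interval -0.05 to 0.12, edgeR adjusted p = 0.462). With libraries scaled by size alone it was called higher, at 0.13 (edgeR adjusted p = 0.00830). Cavin4 (ENSMUSG00000028348) is a plus-strand gene of chromosome 4 at 48663514 to 48673502.

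Ehd2, an ATPase that forms rings at the caveolar neck and holds caveolae at the surface, had 167, 176 and 167 CPM in the Prr33-gRNA libraries, against 225, 227 and 237 CPM in the Ctrl-gRNA libraries. The groups were apart, and the fall was 1.35-fold (log2 fold change -0.44, SE 0.05, edgeR adjusted p = 4.09e-10). Ehd2 (ENSMUSG00000074364) is a minus-strand gene of chromosome 7 at 15946958 to 15967567. All 8 genes have the same start and end in GENCODE M21 as in the count table. Apart from Cavin3, which shared 20.1% of its 50-base stretches with Gm45667, none of the 8 shared a 50-base stretch of its transcripts with those of another gene.

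**Figure D2:**
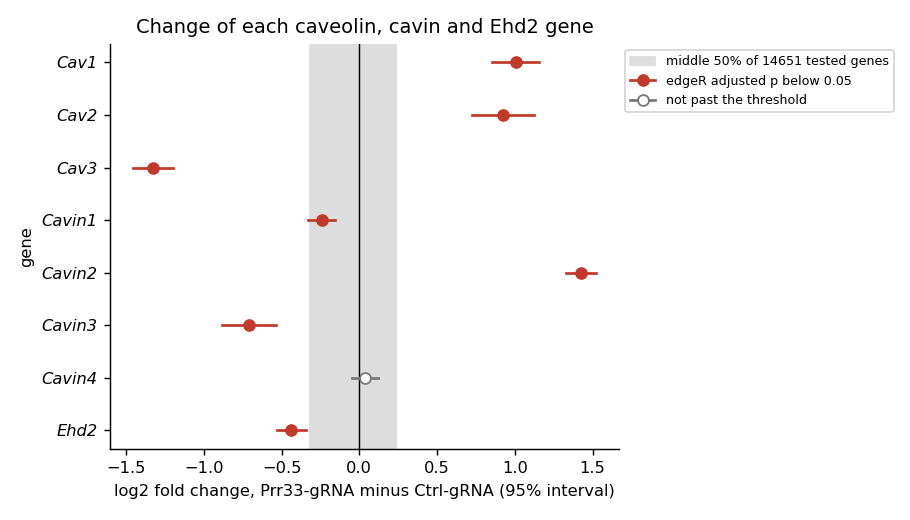
Log2 fold change of each gene (points) with its 95% interval (lines) from edgeR's quasi-likelihood fit, over the middle 50% of the 14651 tested genes (grey band, -0.32 to 0.24). Cav1, Cav2 and Cavin2 lie to the right of the band, Cav3, Cavin3 and Ehd2 to its left, and Cavin1 and Cavin4 inside it.

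Per unit of length, Cavin4 was the most abundant of the 8 transcripts in both groups, with 205 ± 5.76 FPKM in Prr33-gRNA and 199 ± 3.68 FPKM in Ctrl-gRNA (SD, n = 3 each). The order below it differed. In Prr33-gRNA it was followed by Cavin1 (99.0 ± 2.97 FPKM) and Cavin2 (98.7 ± 1.86 FPKM), whose values overlapped, then Cav3 (41.5 ± 4.36 FPKM) and Ehd2 (33.1 ± 1.04 FPKM). Cav1 (12.9 ± 0.525 FPKM) and Cavin3 (12.6 ± 1.21 FPKM) overlapped in this group, and Cav2 (7.27 ± 0.266 FPKM) was last. In Ctrl-gRNA the order was Cavin1 (117 ± 1.13 FPKM), Cav3 (103 ± 4.99 FPKM), Ehd2 (44.6 ± 1.38 FPKM), Cavin2 (36.6 ± 1.88 FPKM), Cavin3 (20.5 ± 1.23 FPKM), Cav1 (6.41 ± 0.244 FPKM) and Cav2 (3.82 ± 0.244 FPKM). No neighbours in that order overlapped.

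The make-up of the caveolin transcripts shifted away from Cav3. Cav3 took 69.1%, 68.7% and 63.7% of summed caveolin FPKM in the Prr33-gRNA libraries, against 91.1%, 90.8% and 91.1% in the Ctrl-gRNA libraries. Its share was lower in each Prr33-gRNA library than in any Ctrl-gRNA library. Per unit of length Cav3 was the main caveolin transcript in each library, but in CPM, with no division by length, the third Prr33-gRNA library had 46.5 for Cav1 and 42.6 for Cav3. Without that division the difference in Cav3 share was -36.4 percentage points in place of -23.8. Cav1 took 21.01% ± 2.03 in Prr33-gRNA and 5.64% ± 0.128 in Ctrl-gRNA, and Cav2 took 11.8% ± 0.951 and 3.36% ± 0.224 in the same groups (SD, n = 3 each). Summed caveolin FPKM was 61.7 ± 3.996 in Prr33-gRNA and 113.7 ± 5.28 in Ctrl-gRNA (exact two-sided permutation p = 0.1, the smallest that 3 against 3 libraries can give). The 7 shares of the caveolins and cavins each gave this same p, and 0.1 after adjustment over the 7.

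Among the cavins the largest shift was that of Cavin2. It took 23.5%, 23.8% and 24.0% of summed cavin FPKM in the Prr33-gRNA libraries, against 9.43%, 10.2% and 9.85% in the Ctrl-gRNA libraries. Every Prr33-gRNA share was above every Ctrl-gRNA share. Cavin1 took 23.8% ± 0.916 in Prr33-gRNA and 31.3% ± 0.569 in Ctrl-gRNA, Cavin3 took 3.03% ± 0.264 and 5.51% ± 0.363, and Cavin4 took 49.4% ± 1.07 and 53.4% ± 0.342. Cavin2 and Cavin1 levels thus overlapped in Prr33-gRNA, while in Ctrl-gRNA every Cavin2 value was below every Cavin1 value. Summed cavin FPKM was 415 ± 4.80 in Prr33-gRNA and 373 ± 4.57 in Ctrl-gRNA (exact two-sided permutation p = 0.1).

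**Figure D3:**
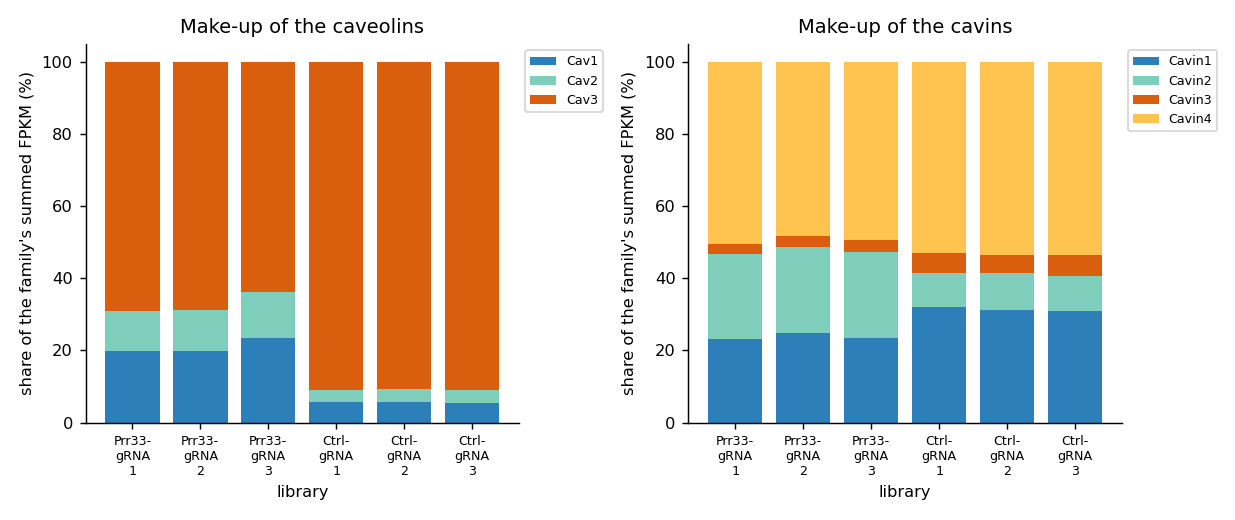
Share of each gene in the summed FPKM of the 3 caveolins (left) and the 4 cavins (right), one bar per library, Prr33-gRNA left of Ctrl-gRNA. Cav3 takes 63.7% to 69.1% of the caveolins in Prr33-gRNA and about 91% in Ctrl-gRNA, and the Cavin2 band is wider in the Prr33-gRNA than in the Ctrl-gRNA bars.

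Ratios between genes within a library do not depend on how libraries are scaled. The log2 ratio of Cav3 to Cav1 was 1.80, 1.79 and 1.45 in the Prr33-gRNA libraries, against 3.98, 4.01 and 4.05 in the Ctrl-gRNA libraries, a 5.03-fold lower ratio. The muscle pair Cav3 and Cavin4 did not move together, since the log2 ratio of Cav3 to Cavin4 was -2.28, -2.14 and -2.50 in Prr33-gRNA and -0.92, -1.03 and -0.88 in Ctrl-gRNA. The neighbouring pair Cav2 and Cav1 kept overlapping log2 ratios, at -0.83, -0.80 and -0.86 in Prr33-gRNA and -0.88, -0.65 and -0.71 in Ctrl-gRNA (exact two-sided permutation p = 0.4). The log2 ratio of Cavin2 to Cavin1 averaged -0.01 ± 0.05 in Prr33-gRNA and -1.67 ± 0.08 in Ctrl-gRNA. That of Cavin1 to Cav1 averaged 2.94 ± 0.06 and 4.19 ± 0.06, and that of Ehd2 to Cav1 averaged 1.36 ± 0.07 and 2.80 ± 0.05, in the same groups. Of 8 ratios compared, 7 did not overlap between groups, each with the smallest possible p of 0.1 (exact permutation, adjusted p = 0.114). This test cannot take them past 0.05 with 3 against 3 libraries. Among single tested genes 57.9% did not overlap in CPM, and no such share was computed for ratios of other genes. The ratios share genes and restate the levels given above, so they are not separate results.

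The genes around the 8 were also examined. Of 42 other tested genes within 200 kb, 14 were higher, 12 lower and 16 not past the threshold, so 61.9% were called where 52.1% of all genes were. Around Cav1 and Cav2 each tested gene rose. Besides the pair itself these were Met, the hepatocyte growth factor receptor (117 CPM in Prr33-gRNA and 65.4 CPM in Ctrl-gRNA, log2 fold change 0.84), and Tes, a focal adhesion protein (44.5 and 29.0 CPM in the same groups, log2 fold change 0.61). The 4 tested neighbours of Cavin2 were higher too. Nabp1, a single-stranded DNA binding protein, rose by 1.37 and Tmeff2 by 0.42 on the log2 scale, though Tmeff2 was not called without Prr33-gRNA replicate 1 or Ctrl-gRNA replicate 1 (edgeR adjusted p = 0.0776 and 0.0625). The antisense RNA 9330175M20Rik, which spans Cavin2 without sharing an exonic base, had 11, 13 and 15 counts in Prr33-gRNA and 1 count in each Ctrl-gRNA library.

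At the other stretches, calls went both ways around Cav3 and Cavin1 and in a single direction around Cavin3, Cavin4 and Ehd2. Next to Cav3, Lmcd1 fell by 0.85 on the log2 scale, Rad18 had 0.37 (not called without Prr33-gRNA replicate 3, at 0.24, edgeR adjusted p = 0.0611), and Ssu2 fell to 0.0363 CPM in Prr33-gRNA, against 1.53 CPM in Ctrl-gRNA. Around Cavin3, 1 of 8 tested genes was lower and 0 were higher, and around Ehd2 3 of 6 were lower and 0 higher. Around Cavin4, 3 of 4 were higher and 0 lower, and around Cavin1, 4 of 13 were higher and 6 lower.

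**Figure D4:**
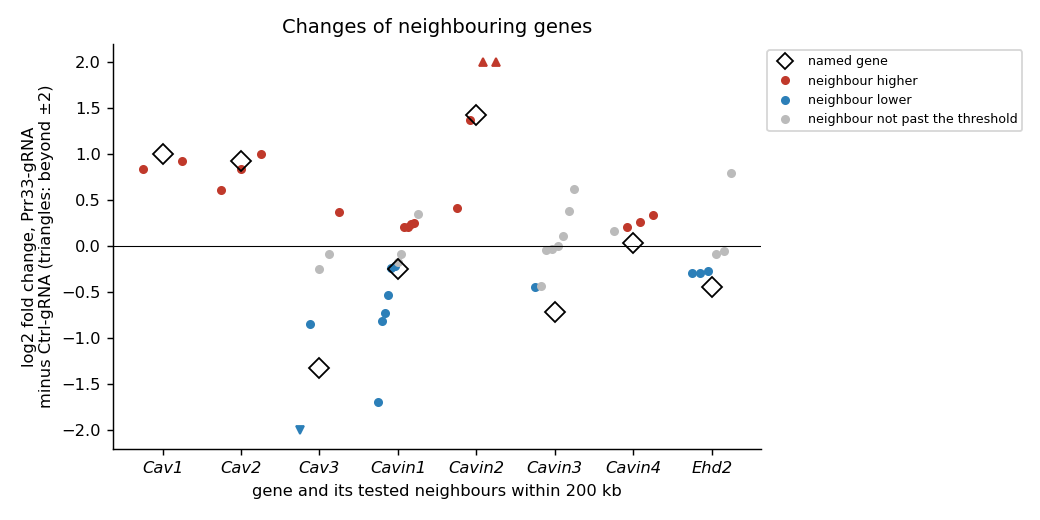
Log2 fold change (vertical axis) of each of the 8 genes (open diamonds) and of the tested genes within 200 kb of it (points, coloured by call, triangles beyond ±2). All points by Cav1, Cav2, Cavin2 and Cavin4 lie above 0, though Cavin4 itself did not pass the test. Those by Cav3, Cavin1, Cavin3 and Ehd2 fall on both sides.

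Genes that work with caveolae or in related membrane processes, clathrin uptake among them, were taken from 7 lists. Of their 109 tested rows other than the 8 genes, 33 were higher, 39 lower and 37 not past the threshold, and their median log2 change was 0.00. That is 66.1% called, where 25.5% of all tested genes were higher, 26.6% lower and 52.1% called in either direction. No list was tested as a set. The share called was 81.8% in the T-tubule list. Dysf and Trim72 sit in 2 of the lists. The proteins of membrane shaping at T-tubules were the most one-sided, with 8 of 11 tested lower and 1 higher (2 higher without Prr33-gRNA replicate 2 or with libraries scaled by size alone) and a median of -0.25. Jph2, which ties T-tubules to the sarcoplasmic reticulum, averaged 305 ± 19.7 CPM in Prr33-gRNA and 707 ± 43.4 CPM in Ctrl-gRNA (log2 fold change -1.21). Tcap, the titin cap protein, averaged 5.22 ± 0.531 CPM in Prr33-gRNA and 25.6 ± 3.28 CPM in Ctrl-gRNA (-2.29). Dysf and Trim72, both sarcolemmal repair proteins that bind CAV3, fell by 0.54 each on the log2 scale.

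The wider membrane repair list was mixed, with 6 of 21 tested higher, 8 lower and a median of -0.01 (66.7% called, beside 52.1% of all tested genes). Anxa1, a calcium-dependent phospholipid-binding protein, averaged 447 ± 10.5 CPM in Prr33-gRNA and 239.7 ± 14.3 CPM in Ctrl-gRNA (log2 fold change 0.90), and Myof, a ferlin like Dysf, rose by 0.43. Anxa7, on chromosome 14, fell by 0.81. Of the caveola neck list 2 of 7 tested were higher and 1 lower, with a median of -0.07 (42.9% called, below the share of all tested genes). Pacsin3, the muscle form of the membrane-bending PACSIN proteins, averaged 54.5 ± 7.003 CPM in Prr33-gRNA and 104 ± 9.91 CPM in Ctrl-gRNA (-0.94), while Ehd3 had -0.20 and did not pass (edgeR adjusted p = 0.0746). Ehd3 was called lower without Prr33-gRNA replicate 2, at -0.25. The receptor tyrosine kinase gene Ror1, with 12, 30 and 20 counts in Prr33-gRNA and 1, 0 and 4 in Ctrl-gRNA, was higher. The dynamin gene Dnm2 had 0.12 and lost its call when any one of Prr33-gRNA replicates 1 and 2 or Ctrl-gRNA replicates 2 and 3 was left out (0.10 to 0.13). Ehd1 is listed at 0 counts in every library, as are the genes beside it on chromosome 19, Men1 and Sf1 among them, so no level is given for it.

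Of the flotillins, stomatins and raftlins, other scaffolds of membrane domains, 4 of 9 tested were lower and 2 higher, with a median of -0.32. This list and that of receptors and signalling proteins each had 66.7% called, beside 52.1% of all tested genes. The number of flotillins, stomatins and raftlins higher was 1 without Prr33-gRNA replicate 1, Ctrl-gRNA replicate 1 or Ctrl-gRNA replicate 2. Rftn1 had 0 counts in each Prr33-gRNA library and 623, 561 and 504 in the Ctrl-gRNA libraries, and its relative Rftn2 fell by 0.67 on the log2 scale. Flot1 averaged 54.1 ± 4.99 CPM in Prr33-gRNA and 68.0 ± 4.30 CPM in Ctrl-gRNA (-0.33), and Stoml1 fell by 0.69. Of the receptors and signalling proteins reported in caveolae, 13 of 27 tested rows were lower and 5 higher (9 higher with libraries scaled by size alone), with a median of -0.11. In that list Pdgfrb, a receptor for platelet-derived growth factor, averaged 4.84 ± 0.358 CPM in Prr33-gRNA and 28.5 ± 1.72 CPM in Ctrl-gRNA (-2.56). The Src-family kinase gene Fyn fell by 0.87, and Bmpr1a and Prkcd, both on chromosome 14, fell by 0.75 and 1.72.

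Of the clathrin coat and its adaptors, the other main route of uptake, 7 of 18 tested were higher and 3 lower (1 lower with libraries scaled by size alone), with a median of 0.08. Its 55.6% called was near the 52.1% of all tested genes. The clathrin heavy chain gene Cltc averaged 665 ± 31.0 CPM in Prr33-gRNA and 446 ± 10.5 CPM in Ctrl-gRNA (log2 fold change 0.57), and Dnm3, Ap2a2 and Epn2 rose by 0.91, 0.28 and 0.35. Of genes for sphingolipids and phosphatidylserine, lipids enriched at caveolae, 10 of 18 tested were higher and 4 lower, with a median of 0.15 (77.8% called). Ugcg and Tmem30a rose by 0.27 and 0.41, while Sptlc2, a subunit of the enzyme that starts sphingolipid synthesis, fell by 0.79 and the lipid flippase gene Atp11a by 0.48.

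**Figure D5:**
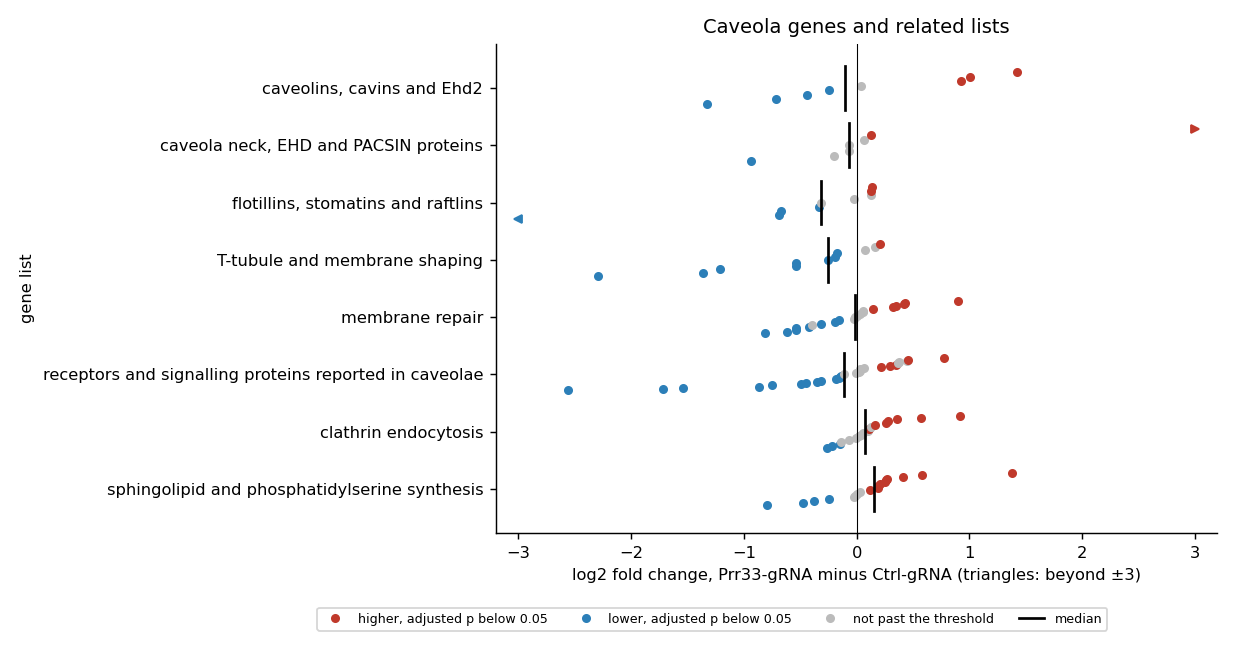
Log2 fold change (horizontal axis) of each tested gene of the 8-gene set and of the 7 related lists, with black bars at the medians and triangles for values beyond ±3. The T-tubule list has its median at -0.25 and the sphingolipid list at 0.15, and each list holds genes on both sides of 0.

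The genes nearest to Cav1 and Cav3 in pattern were sought among 9943 other protein-coding genes averaging at least 5 CPM. The measure was the root mean square difference between log2 CPM values over the 6 libraries, each gene centred on its own mean. Nearest to Cav1 were Ect2 (0.036), Ptprd (0.038) and Nr4a3 (0.047), with log2 fold changes of 0.97, 0.98 and 0.99. Nearest to Cav3 were Daxx (0.055), Mitd1 (0.059) and Pstpip1 (0.067), with log2 fold changes of -1.42, -1.28 and -1.40. None of these 6 belongs to the 8 genes. The measure largely follows the difference between the groups, so their similar fold changes come with the choice and are no separate result.

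Markers of muscle and of other cell types were read in the same libraries. All 10 muscle markers were detected and called, 7 lower and 3 higher. Myog, a driver of terminal differentiation, averaged 384 ± 23.0 CPM in Prr33-gRNA and 1186 ± 86.2 CPM in Ctrl-gRNA, and Ckm, the muscle creatine kinase, averaged 713 ± 26.1 and 606 ± 5.38 CPM in the same groups. The 7 endothelial markers summed to 0.830 to 1.31 CPM in Prr33-gRNA and 1.79 to 2.37 CPM in Ctrl-gRNA, with Tie1 at 0 counts and none tested. They did not all differ one way, since Tek had 14, 6 and 12 counts in Prr33-gRNA and 3 in each Ctrl-gRNA library, while Kdr had 0 in each Prr33-gRNA library and 8, 16 and 14 in Ctrl-gRNA. The 6 adipocyte markers summed to at most 1 count in a library of either group, with Adipoq, Plin1, Cidec and Retn at 0.

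The 7 fibroblast markers summed to 16.4 to 18.5 CPM in Prr33-gRNA and 186 to 208 CPM in Ctrl-gRNA. All 3 that were tested fell, namely Col1a1, Dcn and Pdgfra, and Lum was at 0. The fall of Pdgfra was not called by DESeq2 or without Ctrl-gRNA replicate 1 or 2 (-0.46 and -0.44). It was also not called by limma on log2(FPKM + 0.1) or at a threshold of 0.01. The 6 smooth muscle and pericyte markers summed to 97.4 to 105 CPM in Prr33-gRNA and 117 to 122 CPM in Ctrl-gRNA, nearly all of it Smtn. The 6 leukocyte markers summed to 0.951 to 1.88 CPM in Prr33-gRNA and 1.251 to 2.12 CPM in Ctrl-gRNA, with Ptprc and Adgre1 at 0. The part of other cell types in the changes of Cav1, Cav2 and Cavin2 was not tested. Myog and most other muscle markers were lower where Cav3 was lower, and their part in that result was not tested.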

How the data were processed

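RNA-seq libraries of total RNA from C2C12 cells were analysed, 3 Prr33-gRNA and 3 Ctrl-gRNA, grouped by sample title. Whole-read counts per gene were deposited by the authors, and a second deposited table holds FPKM per gene. Per the submitters' processing notes featureCounts 1.5.0-p3, HISAT2 2.0.5 and CASAVA were used, and the build was mm10; their roles, the annotation release and the strand setting are not given in the sources used here. The 333 rows without an Ensembl ID are new gene models in the deposited table and were kept.

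Counts were tested with edgeR 4.0.16 (filterByExpr, TMM, robust quasi-likelihood F test) in R 4.3.3, with Benjamini-Hochberg adjustment over 14651 genes. The SE is the absolute log2 fold change over the square root of F, and intervals are at 95%. Depth limits precision: 3 counts correspond to 0.150 to 0.182 CPM. Tested on simulated counts with 50 genes changed at each fold among 14423, edgeR found 24 of those changed 1.25-fold and 30 of those changed 1.5-fold. It found 41 for 2-fold and 49 for 4-fold, and made 9 false calls. The simulation took each gene's spread from a common trend and changed far fewer genes than the 52.1% called here. Its figures thus do not give the recovery or the number of false calls in the real comparison. No library pair of a group agreed within counting noise (chi-square of 2.88 to 5.66 per gene). Shares and ratios used FPKM and exact permutation tests in scipy 1.17.1.

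The genes and lists were chosen with earlier results of these data known. Named genes were drawn from the 8, Prr33 and up to 4 per related list with the lowest adjusted p. Markers of at least 1 CPM, tested genes within 200 kb and the 3 nearest in pattern to Cav1 and to Cav3 also qualified. Not every marker or neighbour that qualified is named. Others (Men1, Sf1, Gm45667, Tek, Kdr, and markers or list genes at 0) are named for their overlap, their direction or their zeros, having been chosen after their values were seen. Ptp4a1 has 2 rows in the receptor list, each counted once. Protein sequences were not used here. Promoter sequences are from RefSeq, cut to the bases before the start after the table was seen. Alternatives were RLE factors, library size alone, DESeq2 1.42.0, limma-voom (limma 3.58.1), a replicate block, no filter, a filter of 1 CPM in at least 3 libraries, testing protein-coding genes alone, limma on log2(FPKM + 0.1) or log2(FPKM + 1), calls at 0.01, calls of 2-fold or more, leaving out each library, and for shares and ratios CPM not divided by length and a pseudocount of 1. Figures were drawn with matplotlib 3.10.9.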

Additional observations from a re-analysis of the deposited data

How the results depend on the processing

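In each of 16 other fits the calls and directions of Cav1, Cav2, Cav3, Cavin1, Cavin2, Cavin3 and Ehd2 stayed as reported, and the single change was Cavin4, called higher at 0.13 under library-size scaling (edgeR adjusted p = 0.00830). Ranges of log2 fold change were 0.91 to 1.09 for Cav1, 0.78 to 1.01 for Cav2, -1.38 to -1.24 for Cav3, -0.26 to -0.15 for Cavin1, 1.39 to 1.51 for Cavin2, -0.79 to -0.62 for Cavin3 and -0.46 to -0.35 for Ehd2. Library-size scaling moved the median gene by 0.09 and gave 4999 genes higher and 3103 lower, against 3740 and 3899 with TMM. Deviations from the group means correlated at -0.01, -0.01 and 0.02 between libraries of equal replicate number. The main fit used no pairing. Such correlations cannot show how libraries were prepared, and the labels state no pairs. A replicate block gave 3811 higher and 3975 lower, with 3 and 4 of the 8 genes. A limit of 1 on the absolute log2 fold change left 427 genes higher and 1166 lower, and 2 and 7 of the related genes. By construction it drops Cav2 (0.92), which left 2 of the 3 genes that rose. It also drops Cavin1 (-0.24), Cavin3 (-0.71) and Ehd2 (-0.44), which left 1 of the 4 genes that fell. Without division by gene length, the differences in share, in percentage points, were 23.8 for Cav1, 12.5 for Cav2, -36.4 for Cav3, -10.7 for Cavin1, 15.9 for Cavin2 and -1.61 for Cavin3. With a pseudocount of 1 the differences in log2 ratio were -1.14 for Cavin1 to Cav1 and -1.33 for Ehd2 to Cav1. Protein identity between the genes was planned and not run. Alternatives were also run for 84 other genes, namely Prr33, the tested neighbours, and the list genes and markers picked by rule. The genes nearest in pattern to Cav1 and Cav3 were not added to these. Of the 1501 values 0 reversed, 79 lost a call (47 of them under the limit of 1) and 18 gained one. Beyond that limit, calls were lost under at least 1 alternative for Bicra, Coasy, Dnm2, Gm12439, Mlx, Pdgfra, Plekhh3, Rad18 and Tmeff2, and Plekhh3 lost its call under DESeq2, library-size scaling and several others.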
